A study of Mus musculus with 16 samples.

Results

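Retinal microglia taken at day 4 after optic nerve crush were compared with those of uninjured retinas, across all expressed genes. The libraries were the 8 of the series' 16 whose labels give day 0 or day 4, with 4 libraries a day. The table covers 55385 genes. An estimate from its values gave 9593228 to 15708302 reads assigned to genes in each of these libraries. Both groups came from Iba1-EGFP mice, in which the promoter of Iba1 (the gene Aif1) drives the green fluorescent protein EGFP, and the EGFP-marked cells of the retina were collected by fluorescence-activated sorting. Day 0 mice were 15 weeks old and had no treatment. Day 4 mice were 13 weeks old and had received the crush, so age and injury cannot be told apart. All 8 titles carry the prefix M. The number that ends each title starts with the same digits in replicates 1 and 2 of every day (called batch 1 here) and with others in replicates 3 and 4 (batch 2). The labels give neither the number of cells or animals behind a library nor any statement that the libraries of a day are separate animals, so p-values here reflect the spread among these libraries, and that spread may be technical.

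Microglia are the resident macrophages of the retina. In the healthy eye they survey their surroundings with fine processes, and they keep a set of homeostatic genes high under the influence of TGF-beta and the CSF1 receptor. The crush cuts the axons of retinal ganglion cells at the optic nerve, without opening the retina. Activated microglia are known to release cytokines and chemokines, to take up debris, to respond to interferon and to divide.

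The genes that rose at day 4 included inflammatory mediators and members of the lists of cell division, of protein synthesis, folding and breakdown, and of the actin cytoskeleton. Fewer genes fell, among them some of neurons, glia and the clock. In all, 790 of 14795 tested genes changed (5.34%; limma with Benjamini-Hochberg adjustment, threshold 0.05). Of these, 684 rose (4.62%) and 106 fell (0.716%). The genes that rose took 3.47% to 5.49% of a library's reads at day 0 and 12% to 14% at day 4. Those that fell went from 1.66% to 2% of the reads down to 0.378% to 0.51%. The median change was 1.63 for the genes that rose and −2.43 for those that fell, on the scale of log2(FPKM + 1), which understates the change of low genes. FPKM is the level in fragments, scaled by gene length and by the reads of the library. In 655 of the 684 genes all 4 day 4 libraries lay above all 4 day 0 libraries (12.6% of tested genes did so), and in 70 of the 106 they lay below (1.89% of tested genes). The genes were called from these same values, so this separation and the shifts in the share of reads are favoured by the selection.

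The rises and falls differed in kind of gene. Of the genes that rose, 380 were annotated as protein coding and 257 (37.6%) as pseudogenes, against 18.2% pseudogenes among all tested genes. Of the genes that fell, 98 coded for protein and 2 were pseudogenes. Median exon length was 1197 bases for the genes that rose, 3239 bases for those that fell and 3075 bases for all tested genes. Reads of a processed pseudogene can often not be told apart from those of its parent gene, so the pseudogene rises and the levels of parent genes are uncertain. The part this had in the count was not tested. Eif5al3-ps had means of 33.9 and 129 FPKM on days 0 and 4, and Eif5a of 204 and 780 FPKM. Eif4a-ps4 had 47.2 and 214 FPKM, and Eif4a1 29.3 and 125 FPKM. The unnamed model Gm13461 had 77 and 352 FPKM, and Ran 79.3 and 347 FPKM. These models were picked after their values were seen.

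**Figure D1:**
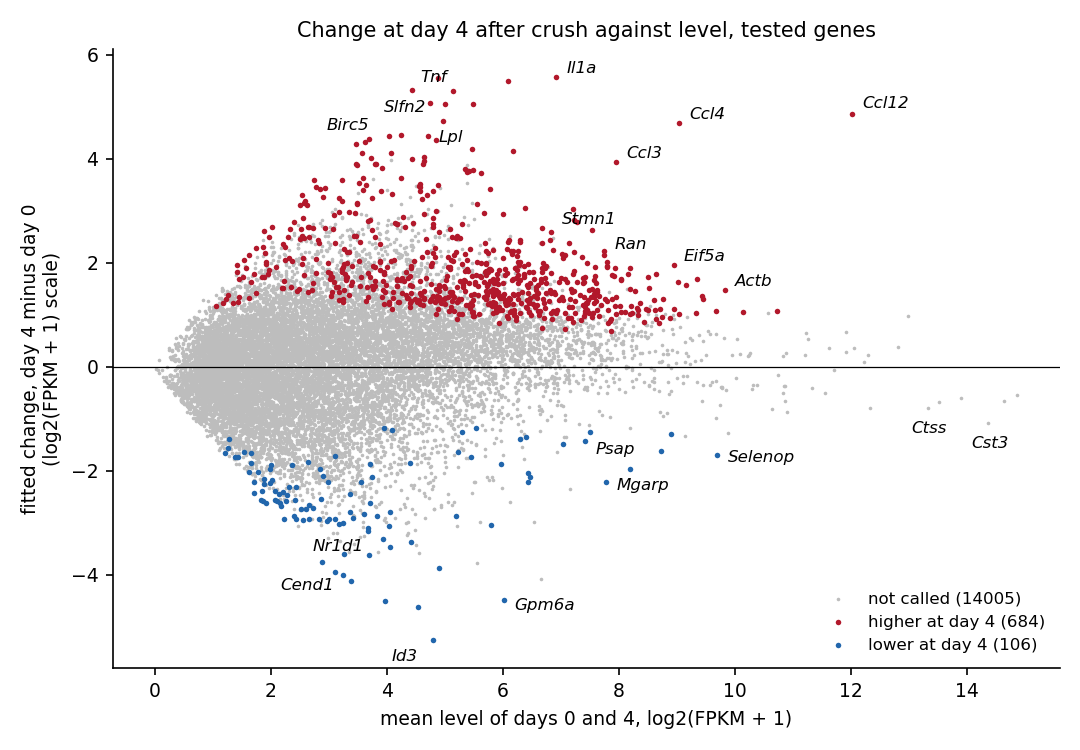
Change from day 0 to day 4 (vertical axis, log2(FPKM + 1) scale) against the mean level of the 2 days (horizontal axis, log2(FPKM + 1)) for 14795 tested genes. Red points are the 684 genes that rose, blue points the 106 that fell and grey points the rest, with selected genes named. Ccl12 combines a large rise with a high level, the rises of Ran, Eif5a and Actb are smaller, and the 2 most abundant genes named, Cst3 and Ctss, lie below 0 without passing the test.

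Median-of-ratios factors, which set each library by its typical gene rather than by its total, were 0.901 to 1.01 at day 0 and 1.27 to 1.39 at day 4. Rescaling by them moved the median change of all tested genes from 0.16 to −0.17. After rescaling, 154 genes rose (1.04%) and 118 fell (0.798%), and these held 154 of the 684 rises and 78 of the 106 falls. All 790 kept their direction. A gene list is therefore read against these medians and percentages. A gene called at day 4 against day 0 and given below without a rescaled value also passed that test after rescaling. For calls between injured days, rescaled values of single genes are not given. The largest rises, the largest falls and the smallest p-values named below were taken only from genes without overlap between the days. For those genes the lack of overlap was set by the choice, and a small p-value favours a small spread.

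The microglia label was checked first. The 7 microglia markers (Tmem119, P2ry12, Sall1, Cx3cr1, Csf1r, Aif1 and Fcrls) summed to 1107, 2104, 3966 and 4476 FPKM in day 0 replicates 1 to 4 and to 2002, 2250.1, 2692 and 2270.1 FPKM in those of day 4. The groups overlapped, and day 0 replicate 1 was lowest. Both groups also held transcripts of other retinal cells. The 8 bipolar cell markers summed to 47.6 to 287 FPKM at day 0 and to 0.452 to 34.4 FPKM at day 4, without overlap. The 5 rod markers summed to 1515 to 7245 FPKM and to 1272 to 3158 FPKM, with overlap. In a bulk library, fewer cells of a type and less RNA per cell cannot be told apart. Monocyte markers reached 19.5 FPKM at day 0 and 10.4 FPKM at day 4 in sum, and the T and NK cell markers at most 0.34 FPKM, with Trac at 0 in all 8 libraries. Day 0 replicate 1 held cone markers at 1663 FPKM in sum, against 0.0845 to 469 FPKM in the other 7 libraries, and erythrocyte markers at 219 FPKM against at most 3.27 FPKM. Endothelial and pericyte markers summed to 366 and 129.9 FPKM in day 0 replicates 1 and 2 and to at most 6.55 FPKM in the others. Day 0 replicate 1 also stood apart, with 16522 genes at 1 FPKM or more against 9493 to 13050 in the other 7 libraries. Without it 545 genes changed, 471 of them among the 790.

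Mediators of inflammation had the largest rises. Ccl12, a chemokine that draws monocytes, was at 65.6, 420.4, 350.3 and 432 FPKM in uninjured retinas and at 4923, 5119.7, 12112 and 9942 FPKM on day 4 (replicates 1 to 4, here and below). All day 4 libraries were above all day 0 libraries, and day 0 replicate 1 was the lowest of the 8. The rise was 4.86 ± 0.43 (SE; limma, adjusted p = 0.000136), and 4.39 after rescaling. Ccl4 and Ccl3, chemokines of macrophages, were next in level. Ccl4 was at 41.7, 68.2, 33.2 and 17.5 FPKM in uninjured retinas and at 666, 725, 1569 and 1085 FPKM on day 4, a rise of 4.69 ± 0.65 (adjusted p = 0.00178). Ccl3 was at 12, 52, 63.4 and 13.7 FPKM in uninjured retinas and at 299, 362, 685 and 489.8 FPKM on day 4, a rise of 3.95 ± 0.60 (adjusted p = 0.00342). Neither overlapped between the days, and both kept their calls after rescaling (4.21 and 3.48). Ccl2, the main ligand of CCR2, was at 2.75, 15.7, 0 and 0 FPKM in uninjured retinas and at 108, 89.2, 154 and 169 FPKM on day 4. It was listed at 0 in both libraries of batch 2 of day 0 and was high in all of day 4, with a rise of 5.50 ± 0.85 (adjusted p = 0.0035). Ccl2 lies at chr11:82035571-82037453 and Ccl12 at chr11:82101845-82103400, and Ccl3 and Ccl4 at chr11:83647844-83649355 and chr11:83662584-83664683, all in GRCm38.

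Among the cytokines, Il1b, which encodes IL-1beta, was listed at 0 throughout day 0 and stood at 23.4, 23.3, 99.4 and 82 FPKM at day 4. Its day 4 libraries fell into a lower pair (batch 1) and a higher pair (batch 2), and the gene passed the test (adjusted p = 0.00654). Tnf was at 46.4, 38.2, 53.6 and 27.5 FPKM at day 4 against at most 0.0636 FPKM at day 0, and Il1a at 191, 165, 299 and 245 FPKM against 7.13, 0, 0.157 and 48.6 FPKM. Both rose (limma, adjusted p = 0.00429 and 0.0127), without overlap, and the wide day 0 range of Il1a goes with its larger SE (5.57 ± 1.15 against 5.32 ± 0.86 for Tnf). Mif, a constitutive cytokine, rose by 1.46 ± 0.34 (adjusted p = 0.0229), a call that ended in 4 of the 8 fits without 1 library and after rescaling (0.98, adjusted p = 0.119). Of 15 tested cytokines 4 rose and 0 fell, with a median change of 1.39 (1.05 after rescaling, when 3 rose). Of 17 tested chemokines and chemokine receptors 5 rose, also after rescaling, 0 fell and all 17 had changes above 0, with a median of 1.77 (1.47 after rescaling).

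The last of the 5 was Cxcl10, a chemokine induced by interferon. It was at 0, 17.9, 0 and 0 FPKM in uninjured retinas and at 90.1, 70.8, 151 and 21.8 FPKM on day 4. At day 0 only replicate 2 had a value above 0, and it lay below all of day 4, so that the rise of 5.05 ± 0.93 (limma, adjusted p = 0.0076; 4.60 after rescaling) rests on a group with 3 libraries at 0. The promoter windows of Cxcl10 and of Oas1a, an interferon-induced enzyme that senses double-stranded RNA, are shown because both genes rose and both windows hold the letters of an interferon-stimulated response element. They are RefSeq sequences of GRCm38.p6, from 250 bases before to 50 bases after the start, on the minus strand of chr5:92348840-92349139 and of chr5:120907476-120907775. Capitals mark motif matches.
Cxcl10: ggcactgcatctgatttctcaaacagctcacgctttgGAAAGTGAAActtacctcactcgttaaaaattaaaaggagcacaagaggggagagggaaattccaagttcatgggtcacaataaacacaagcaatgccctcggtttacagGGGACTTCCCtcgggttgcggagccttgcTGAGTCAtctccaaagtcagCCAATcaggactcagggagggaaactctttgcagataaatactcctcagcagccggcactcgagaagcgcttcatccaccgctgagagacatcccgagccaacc
Oas1a: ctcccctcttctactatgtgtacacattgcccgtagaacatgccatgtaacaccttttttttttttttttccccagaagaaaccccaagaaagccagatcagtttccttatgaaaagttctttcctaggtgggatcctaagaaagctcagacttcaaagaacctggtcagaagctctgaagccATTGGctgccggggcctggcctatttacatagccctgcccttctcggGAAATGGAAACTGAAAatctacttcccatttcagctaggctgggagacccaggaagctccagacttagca

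In the Cxcl10 window, the interferon-stimulated response element (GAAANN followed by GAAA) begins 213 bases before the start, an NF-kB site (GGGNN followed by TTNCC) 103 bases, an AP-1 site (TGANTCA) 74 bases and a CCAAT box 54 bases before it. In the Oas1a window, the response element matches at 20 and at 14 bases before the start, with the matches overlapping, and a CCAAT box on the opposite strand begins 67 bases before it. Both strands were searched. The response element occurred in 3.44% of all promoter windows of this length, the NF-kB site in 4.79%, the AP-1 site in 7.81% and the CCAAT box in 37.4%. Among genes with a window, it occurred in 7.52% of 306 that rose, in 14.1% of 71 that fell and in 4.0% of all 8823 tested. The NF-kB site occurred in 6.21%, 5.63% and 6.37% of the same groups. A match is a description of letters and not a bound site.

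Other interferon-induced genes also rose. Of 40 tested members of the interferon list 10 rose and 0 fell (4 after rescaling, 1.04% of all genes), with a median change of 1.0 (0.66 after rescaling). Leaving out each library in turn gave 4 to 10 rises, with 6 without day 4 replicate 1 and 4 without day 4 replicate 2, and 2 with limma voom. Slfn2, a schlafen protein of immune cells, was at 8.46, 0.118, 1.25 and 0 FPKM in uninjured retinas and at 53.4, 62.4, 54.5 and 61.4 FPKM on day 4. The day 4 libraries lay within a narrow range above every day 0 value, and the rise was 4.73 ± 0.66 (limma, adjusted p = 0.00178; 4.3 after rescaling). Oas1a was at 7.71, 13.7, 0 and 11.9 FPKM in uninjured retinas and at 85.4, 119.7, 101 and 46.1 FPKM on day 4. It was listed at 0 in day 0 replicate 3, and its rise was 3.72 ± 0.74 (adjusted p = 0.0109; 3.25 after rescaling). Ifi204 and Ifi211, members of a family of DNA-binding sensors, rose by 2.28 ± 0.43 and 2.36 ± 0.46 (adjusted p = 0.0082 and 0.0106). Psme2, a subunit of the interferon-induced proteasome activator, was at 57, 67.3, 70.8 and 64.3 FPKM in uninjured retinas and at 169, 247, 282 and 220.5 FPKM on day 4, a rise of 1.79 ± 0.28 (adjusted p = 0.00405). Ifi204, Ifi211 and Psme2 stayed called after rescaling. Of 22 tested genes of MHC class I presentation 2 rose (1 after rescaling), and of 15 of MHC class II presentation and costimulation 0 rose and 0 fell (limma; 2 rose and 1 fell at an unadjusted p under 0.05, and 0 passed with limma voom; the median of 0.34 turned to −0.13 after rescaling). Cd74, the class II invariant chain, was at 132, 401, 48.6 and 985 FPKM in uninjured retinas and at 160.1, 306, 861 and 834 FPKM on day 4 and did not pass the test (adjusted p = 0.534).

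Genes of the cell cycle stood high at day 4. Of 50 tested mitosis genes 16 rose (12 after rescaling), 0 fell and 49 had changes above 0. Their median change was 2.05 (1.67 after rescaling). Of 36 tested genes of replication licensing and S phase 10 rose (3 after rescaling) and 0 fell, with a median of 2.31 (1.92), and 6 and 2 rose without day 4 replicates 1 and 2 and 6 with limma voom. The medians were 3.19 and 1.40 for mitosis within batches 1 and 2, and 2.67 and 1.64 for S phase. At day 2 against day 0 they were 2.87 for mitosis, above its day 4 value, and 1.49 for S phase, below its day 4 value.

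Nusap1, which bundles microtubules of the spindle, was at 0, 0.145, 0.0666 and 0.0179 FPKM in uninjured retinas and at 26.1, 22.8, 14.2 and 17.2 FPKM on day 4. All of day 0 was at or near 0 and all of day 4 well above it, with a rise of 4.28 ± 0.56 (limma, adjusted p = 0.00141; 3.88 after rescaling). Birc5 (survivin), a member of the chromosomal passenger complex, was at 0.46, 0, 0.0227 and 0 FPKM in uninjured retinas and at 54.8, 48.9, 9.93 and 9.97 FPKM on day 4, a rise of 4.44 ± 0.67 (adjusted p = 0.00338). Ccnb2, the mitotic cyclin B2, was at 0, 0.193, 0 and 0 FPKM in uninjured retinas and at 79.4, 44, 3.15 and 17.8 FPKM on day 4, a rise of 4.46 ± 0.80 (adjusted p = 0.00713). For Birc5 and Ccnb2 the day 4 levels were higher in both libraries of batch 1 than in both libraries of batch 2. Stmn1, which destabilises microtubules, was at 26.3, 13.8, 49.9 and 36.8 FPKM in uninjured retinas and at 289, 258, 96.6 and 137 FPKM on day 4, without overlap between the days and again with the batch 1 libraries higher at day 4. Its rise was 2.59 ± 0.43 (adjusted p = 0.00511), 3.77 within batch 1 and 1.41 within batch 2, and the difference between the batches did not pass the test (adjusted p = 0.246).

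The named genes of DNA replication were also higher at day 4 than at day 0. Uhrf1, which carries DNA methylation through replication, was at 0.0245, 0.0231, 0.0181 and 0 FPKM in uninjured retinas and at 13.8, 43.6, 23.9 and 9.52 FPKM on day 4, a rise of 4.33 ± 0.84 (limma, adjusted p = 0.00978). Tyms, which makes the thymidine nucleotide, was at 1.7, 0.0484, 0.0127 and 0 FPKM in uninjured retinas and at 21.9, 12.7, 8.48 and 7.11 FPKM on day 4, a rise of 3.26 ± 0.54 (adjusted p = 0.00508). Both had no overlap and stayed called after rescaling (3.93 and 2.86). Mcm5, a subunit of the replicative helicase, was at 1.83, 0, 0.0483 and 0 FPKM in uninjured retinas and at 67.5, 78.8, 41.5 and 15.9 FPKM on day 4. The rise was 5.08 ± 1.13 (adjusted p = 0.0184; 4.66 after rescaling), and the call was lost without day 4 replicate 1 (adjusted p = 0.0642) and without day 4 replicate 2 (adjusted p = 0.0723). Cdk4, the kinase that starts the passage through G1, was among the genes with the smallest p-values. It was at 36.2, 35.7, 34.6 and 41.2 FPKM in uninjured retinas and at 105, 114, 130.4 and 112 FPKM on day 4, with little spread within either day, a rise of 1.61 ± 0.20 (adjusted p = 0.000949; 1.15 after rescaling). Of its exon bases 19.7% overlap Tspan31 on the opposite strand, and the kit does not mark strand.

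The promoter window of Mcm5 is shown as that of a replication gene, from the same source, on the plus strand of chr8:75109259-75109558.
Mcm5: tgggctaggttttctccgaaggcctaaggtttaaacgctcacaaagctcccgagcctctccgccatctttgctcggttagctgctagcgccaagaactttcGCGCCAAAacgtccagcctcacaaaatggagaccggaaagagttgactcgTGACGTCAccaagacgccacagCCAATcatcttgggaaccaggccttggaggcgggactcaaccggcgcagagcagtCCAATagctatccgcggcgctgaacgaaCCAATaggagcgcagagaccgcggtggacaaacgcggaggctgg

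In capitals are an E2F site (TTTGGCGC, on the opposite strand) that begins 149 bases before the start, a cyclic AMP response element (TGACGTCA) 99 bases before it, and 3 CCAAT boxes, at 77 and 22 bases before the start and at base 7 after it. The E2F letters occurred in 0.514% and the cyclic AMP response element in 1.79% of all windows. Among the 306 genes that rose with a window, 1.31% held the E2F site and 2.94% the cyclic AMP response element, against 1.09% and 3.71% of the 8823 tested. The E-box bound by MYC (CACGTG) occurred in 13.4% of the genes that rose and 11.8% of all tested, and the site of PU.1 (GAGGAAGT), the lineage factor of myeloid cells, in 6.86% and 3.96%.

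**Figure D2:**
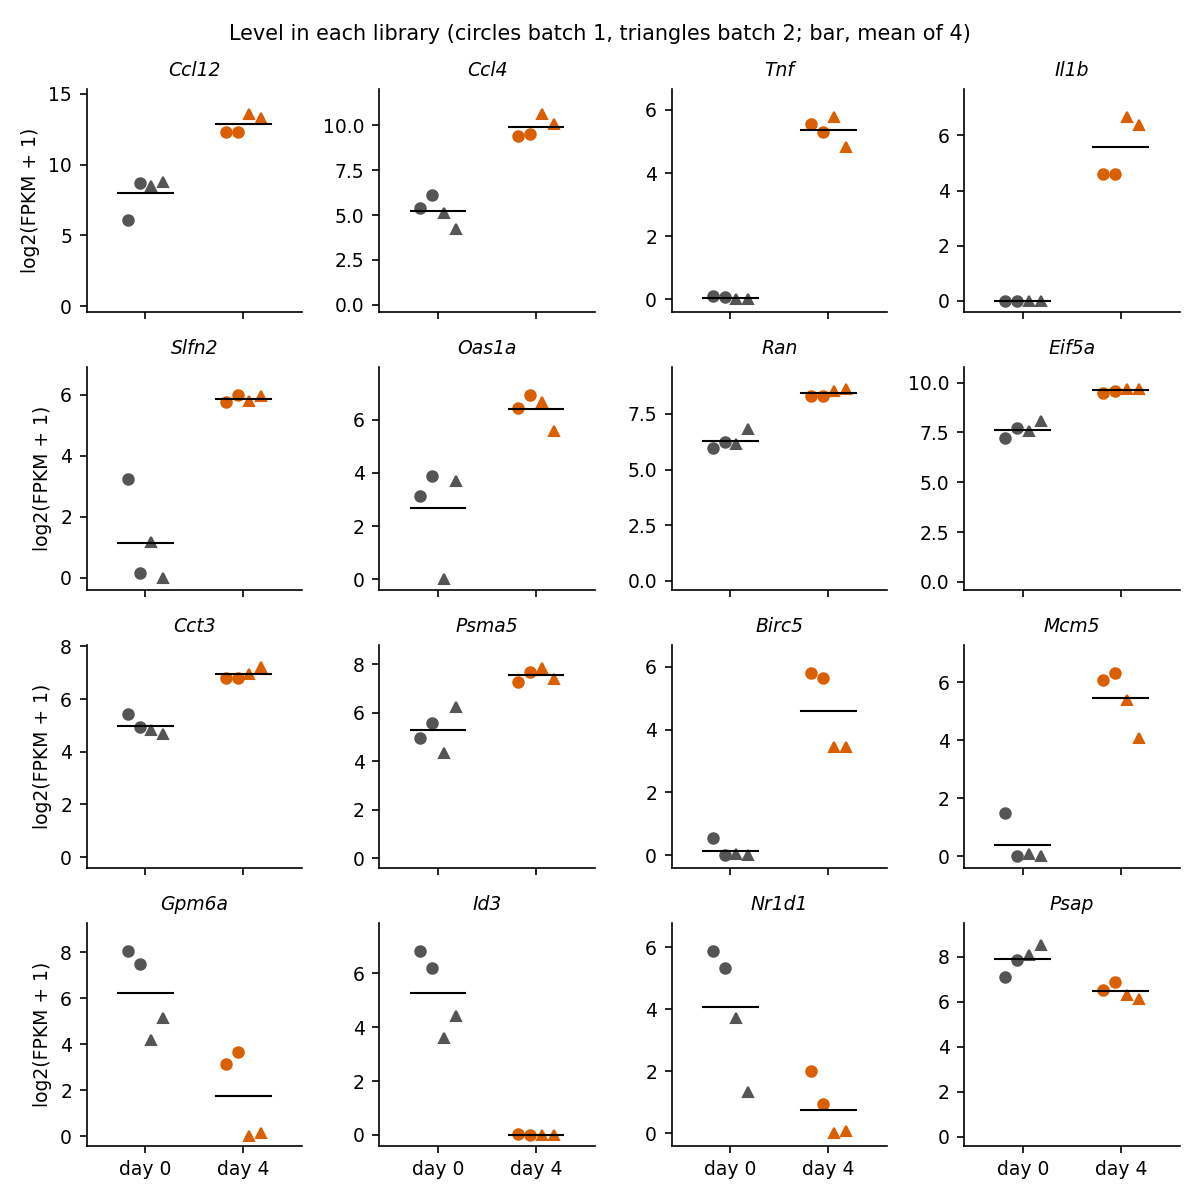
Level of 16 genes in each library, as log2(FPKM + 1) on the vertical axis, for the 4 day 0 and the 4 day 4 libraries. Circles are replicates 1 and 2 (batch 1), triangles are replicates 3 and 4 (batch 2) and bars are means of 4. In the first 12 genes every day 4 point lies above every day 0 point. In Gpm6a, Id3 and Psap every day 4 point lies below, and Nr1d1 overlaps. Many of these genes were named by a rule that required no overlap.

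Pseudogenes and unnamed gene models aside, the smallest p-values of the comparison belonged to Ccl12 and to Ran, Eif5a and Ranbp1, which serve nuclear transport and protein synthesis. Ran, the small GTPase that gives nuclear transport its direction, was at 62.4, 74.7, 68.8 and 111 FPKM in uninjured retinas and at 318, 312, 370.1 and 388 FPKM on day 4. Every day 4 library was well above every day 0 library, with little spread within the days. The rule that named Ran required the first and favoured the second. The rise was 2.15 ± 0.20 (limma, adjusted p = 0.000136; 1.67 after rescaling). Ranbp1, its binding partner, was at 42.9, 31, 33.1 and 36.7 FPKM in uninjured retinas and at 245, 282, 254 and 262 FPKM on day 4, a rise of 2.83 ± 0.29 (adjusted p = 0.000179), though 20.1% of its exon bases belong also to Gm49776. Eif5a, the hypusine-bearing translation factor, was at 146, 211, 190.4 and 267 FPKM in uninjured retinas and at 721, 758, 821 and 820.4 FPKM on day 4, a rise of 1.96 ± 0.20 (adjusted p = 0.000179). All 3 changes were nearly equal within the batches, at 2.19 and 2.1 for Ran, 2.82 and 2.85 for Ranbp1 and 2.07 and 1.86 for Eif5a. How far reads of Ran and Eif5a are shared with pseudogenes was not tested. Hint1, a hydrolase of purine nucleotides, rose by 1.69 ± 0.23 (adjusted p = 0.00157).

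Of 36 tested translation factors 7 rose (3 after rescaling), with a median change of 1.21 (0.75). Eif4a1, the RNA helicase of initiation, was at 26.8, 31.3, 27.6 and 31.6 FPKM in uninjured retinas and at 99.5, 98.5, 117 and 186 FPKM on day 4. It had no overlap and rose by 2.01 ± 0.28 (limma, adjusted p = 0.00168, and 1.54 after rescaling). How far its reads are shared with Eif4a-ps4 was not tested. Of 40 tested genes of the nucleolus and ribosome assembly 10 rose (1 after rescaling), with a median of 1.62 (1.18). Nop10, a protein of the small nucleolar particles that make pseudouridine, rose by 2.01 ± 0.33 (adjusted p = 0.00429), and Nhp2, of the same particles, by 3.06 ± 0.61 (adjusted p = 0.0113; 0.0505 after rescaling). Of 55 tested cytosolic ribosomal proteins 8 rose (1 after rescaling) and 54 had changes above 0, but the median was small, at 0.57 (0.10 after rescaling). Of 22 tested aminoacyl-tRNA synthetases 0 passed the test (limma; 7 rose at an unadjusted p under 0.05, and 0 passed with limma voom), with a median of 1.18 (0.72). Of 40 tested splicing factors 8 rose (3 after rescaling), among them Lsm4, a ring protein bound to U6 RNA (1.57 ± 0.27, adjusted p = 0.00571). Leaving out each library in turn gave 4 to 10 rises among translation factors, 2 to 8 in the nucleolus, 2 to 11 among ribosomal proteins and 4 to 7 among splicing factors, each time fewest without day 4 replicate 2.

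In FPKM as deposited, the proteasome had the highest share of called members among the lists of at least 10 tested genes. This order did not hold after rescaling, when 5 of 17 chemokine genes and 12 of 50 mitosis genes passed, or without day 4 replicate 2, when 12 of 50 mitosis genes and 6 of 34 proteasome genes did. Of 34 tested proteasome genes 19 rose, 0 fell and all 34 had changes above 0, with a median change of 1.29. After rescaling 4 rose and the median was 0.82. The median was 1.29 within batch 1 and 1.27 within batch 2. Leaving out each library in turn gave 6 to 14 rises, fewest without day 4 replicate 2, and limma voom gave 17. Psma5, a subunit of the outer ring of the core, was at 30.5, 47.2, 19.6 and 74 FPKM in uninjured retinas and at 154, 204, 228 and 167 FPKM on day 4, a rise of 2.26 ± 0.33 (limma, adjusted p = 0.00296). Psmb6, a catalytic subunit of the inner ring, was at 109, 135, 60.7 and 69.4 FPKM in uninjured retinas and at 282, 284, 275 and 302 FPKM on day 4, a rise of 1.68 ± 0.28 (adjusted p = 0.00511). Psmc4, an ATPase of the cap, was at 42.5, 40.6, 50.7 and 58.6 FPKM in uninjured retinas and at 149, 137, 148 and 124 FPKM on day 4, a rise of 1.53 ± 0.25 (adjusted p = 0.00508). None of the 3 overlapped between the days, and all 3 stayed called after rescaling (1.79, 1.20 and 1.06).

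Folding factors rose in part. Of 28 tested chaperones 5 rose (2 after rescaling), with a median of 0.87 (0.41). The 2 were subunits of the CCT chaperonin, which folds actin and tubulin. Cct8 was at 71.2, 110.2, 75 and 61 FPKM in uninjured retinas and at 222, 246, 356 and 389 FPKM on day 4, a rise of 1.92 ± 0.26 (limma, adjusted p = 0.00168). Cct3 was at 42.7, 29.8, 27 and 24.7 FPKM in uninjured retinas and at 109.8, 111, 122 and 146 FPKM on day 4, a rise of 1.96 ± 0.30 (adjusted p = 0.0035). The groups did not overlap for either. Of 32 tested genes of folding and stress in the endoplasmic reticulum 6 rose (2 after rescaling). Manf, a secreted factor of the stressed reticulum, rose by 1.71 ± 0.29 (adjusted p = 0.00554). Phgdh, which starts serine synthesis and is a target of the same stress pathway, was at 7.85, 4.57, 30.4 and 22.5 FPKM in uninjured retinas and at 131, 152, 62.3 and 95.5 FPKM on day 4, a rise of 2.93 ± 0.56 (adjusted p = 0.00905), 4.34 within batch 1 and 1.52 within batch 2. Without day 4 replicate 2, the lowest count for both lists, 2 chaperones and 2 genes of the reticulum rose.

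Some nuclear genes of mitochondria rose. Of 50 tested genes of oxidative phosphorylation 10 rose (2 after rescaling) and 47 had changes above 0, with a median of 0.79 (0.32). Of 43 tested genes of the mitochondrial ribosome and protein import 11 rose (2 after rescaling) and 42 had changes above 0, with a median of 1.36 (0.91). Timm23, the channel of the inner membrane, was at 13.3, 13.1, 10.3 and 11.1 FPKM in uninjured retinas and at 50.3, 46.2, 79.9 and 54.4 FPKM on day 4. The groups were far apart, and the rise was 2.15 ± 0.32 (limma, adjusted p = 0.00338; 1.69 after rescaling). Cycs, cytochrome c, rose by 1.70 ± 0.30 (adjusted p = 0.0063), and Slc25a5, the ADP/ATP carrier, by 1.37 ± 0.22 (adjusted p = 0.00386; 0.0719 after rescaling). Leaving out each library in turn gave 3 to 8 rises among genes of oxidative phosphorylation and 4 to 8 among those of the mitochondrial ribosome and import. Of 25 tested glycolysis genes 1 rose and 1 fell (limma; 0 and 1 after rescaling), with a median of −0.05 (−0.42 after rescaling). The fall was that of Aldoc, the brain form of aldolase and a gene of Mueller glia and astrocytes, at 254, 152, 93.9 and 62.1 FPKM in uninjured retinas and at 46.5, 37, 29.9 and 8.18 FPKM on day 4, by −2.21 ± 0.37 (adjusted p = 0.00511).

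**Figure D3:**
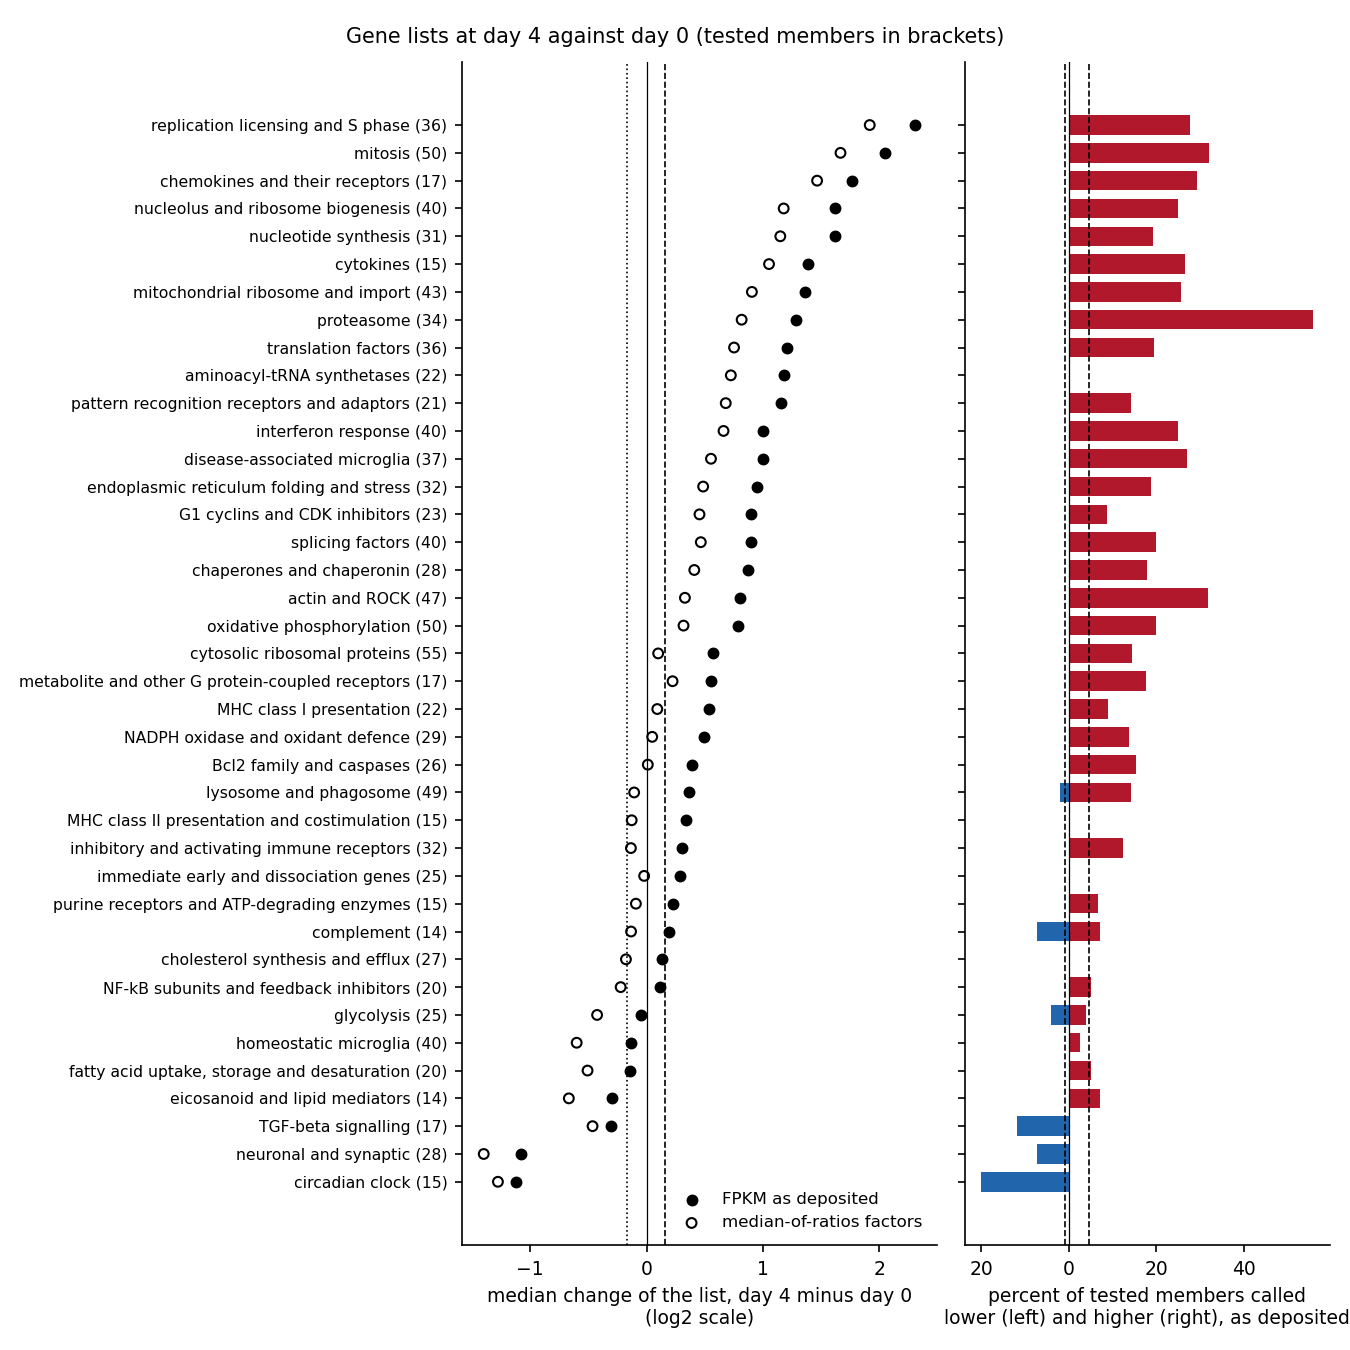
Left, median change of each gene list from day 0 to day 4 (horizontal axis, log2 scale), with FPKM as deposited (filled circles) and after rescaling (open circles); the dashed and dotted lines are the medians of all tested genes, 0.16 and −0.17. Right, percent of tested members that fell (blue, leftward) and rose (red, rightward), with dashed lines at 4.62% and 0.716% of all genes. The proteasome has the longest red bar with 19 of 34 members, and clock and neuronal genes have the lowest medians.

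The series' title names ROCK, a kinase that acts on the actin cytoskeleton. Of 47 tested genes of actin and ROCK 15 rose and 0 fell, with a median change of 0.80. After rescaling 3 rose and the median was 0.33. Fits without 1 library gave 6 to 14, and the counts were 7 when day 0 replicate 1 was left out, 6 for day 4 replicate 1, 6 for replicate 2 and 9 for replicate 3. With limma voom 9 rose. Actb, cytoplasmic beta-actin, was at 209, 373, 755 and 763 FPKM in uninjured retinas and at 1195, 1303, 1383 and 1288 FPKM on day 4. All of day 4 was above all of day 0, yet the day 0 libraries of batch 1 were lower than those of batch 2, and the changes were 2.16 and 0.81 within the batches. The rise was 1.49 ± 0.27 (limma, adjusted p = 0.00713; 1.01 and adjusted p = 0.0524 after rescaling). Pfn1, profilin, which loads actin with ATP, rose by 1.69 ± 0.26 (adjusted p = 0.00344), and Actr3, a subunit of the Arp2/3 branching complex, by 1.63 ± 0.25 (adjusted p = 0.0035). Tagln2, an actin-binding protein, was at 49, 6.33, 48.3 and 52 FPKM in uninjured retinas and at 283, 263, 227 and 254 FPKM on day 4, a rise of 3.04 ± 0.51 (adjusted p = 0.00511) with day 0 replicate 2 the lowest. These last 3 stayed called after rescaling (1.22, 1.16 and 2.57). The microglia markers' sum was lower in the batch 1 libraries of day 0 (1107 and 2104 FPKM) than in those of batch 2 (3966 and 4476 FPKM), and its part in the larger changes of batch 1 was not tested.

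Some surface and lysosomal genes known from activated microglia rose, as did the lipid gene Lpl. Of 37 tested disease-associated microglia genes 10 rose (3 after rescaling) and 0 fell, with a median of 1.0 (0.55), and 6 and 5 rose without day 4 replicates 1 and 2 and 6 with limma voom. Lgals3, galectin-3, was at 0.617, 3.76, 0 and 0 FPKM in uninjured retinas and at 66.8, 60.4, 21.9 and 96 FPKM on day 4, a rise of 5.05 ± 0.95 (limma, adjusted p = 0.00838). Lpl, lipoprotein lipase, was at 1.11, 0.788, 0 and 5.58 FPKM in uninjured retinas and at 43.7, 58, 36.3 and 55.6 FPKM on day 4, a rise of 4.44 ± 0.74 (adjusted p = 0.00506). Both were low in all of day 0, did not overlap and stayed called after rescaling (4.60 and 4.00). Lpl was the only rise among 20 tested genes of fatty acid uptake, storage and desaturation (5%, against 4.62% of all genes). Of these 20 genes 0 fell and 9 had changes above 0, with a median of −0.14 (−0.51 after rescaling). Cd63, a tetraspanin of late endosomes, rose by 1.39 ± 0.23 (adjusted p = 0.00511), and Fcgr1, the high-affinity Fc receptor, by 1.98 ± 0.36 (adjusted p = 0.0076). Rescaling ended both calls (adjusted p = 0.0573 and 0.0636). Hmox1, which breaks down heme, was at 3.57, 7.75, 0.0882 and 6.22 FPKM in uninjured retinas and at 26.2, 31.6, 67.2 and 85.5 FPKM on day 4, a rise of 3.50 ± 0.67 (adjusted p = 0.0092; 3.05 after rescaling). Gpr84, a receptor for medium-chain fatty acids, was at 8.61, 24.1, 24.3 and 51.6 FPKM in uninjured retinas and at 149, 107, 90.6 and 164 FPKM on day 4, without overlap. It rose by 2.39 ± 0.43 (adjusted p = 0.00725; 1.93 and 0.0405 after rescaling), while 39.5% of its exon bases overlap Gm49482 on the opposite strand.

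Of 49 tested genes of lysosome and phagosome 7 rose and 1 fell (0 and 1 after rescaling), and the median of 0.37 turned to −0.11 after rescaling. Fits without 1 library gave 3 to 8 rises, with 4 without each of day 0 replicates 1 and 2 and day 4 replicate 1, and 3 without day 4 replicate 2, and limma voom gave 4. Ctsc, the protease that activates granule proteases, rose by 1.75 ± 0.32 (limma, adjusted p = 0.00741; 0.0581 after rescaling). The gene that fell was Psap, which encodes the saposins that help to digest sphingolipids. It was at 136, 233, 266 and 368 FPKM in uninjured retinas and at 89.9, 118, 78.2 and 69.2 FPKM on day 4, with every day 4 library under every day 0 library, a change of −1.43 ± 0.31 (adjusted p = 0.0156; −1.90 after rescaling).

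Of 40 tested homeostatic genes, which mark the resting identity of microglia, 1 rose and 0 fell (limma; 2 rose and 5 fell at an unadjusted p under 0.05, and 1 rose and 1 fell with limma voom), with a median change of −0.14. After rescaling 0 rose, 2 fell and the median was −0.60, below that of all tested genes (−0.17). The median was 0.39 within batch 1 and −0.52 within batch 2. Without day 0 replicate 1, 1 rose and 4 fell, with a median of −0.40. In that fit 64 of all 14795 tested genes fell, and their median was 0.25. The gene that rose was Fcrls, an Fc receptor-like marker of microglia, at 64.8, 104, 124 and 242 FPKM in uninjured retinas and at 306, 349.5, 499 and 405 FPKM on day 4 (1.67 ± 0.35, adjusted p = 0.0137); the call was lost without day 4 replicate 2 (adjusted p = 0.0532) and after rescaling (0.0837). Cst3, the protease inhibitor cystatin C and the most abundant gene named here, was at 9133, 29522, 40979.6 and 36938 FPKM in uninjured retinas and at 7878, 8410.3, 19225 and 16542 FPKM on day 4. In day 0 replicates 2 to 4 it was above every day 4 library, and in replicate 1 it was not. The change of −1.07 ± 0.35 did not pass the test (adjusted p = 0.0884). After rescaling it did (−1.54, adjusted p = 0.0396). The other of the 2 falls was that of Sparc, a matrix glycoprotein outside the rule for named genes and named after its value was seen (−1.46, adjusted p = 0.0185 after rescaling). Ctss, cathepsin S, was at 4156, 13416, 17572 and 18730.2 FPKM in uninjured retinas and at 4916, 5264, 9412 and 8527 FPKM on day 4 (−0.79 ± 0.37, adjusted p = 0.238).

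Several genes of neurons and glia fell. Gpm6a, a membrane glycoprotein of neurons, was at 263, 179, 17.4 and 34 FPKM in uninjured retinas and at 7.9, 11.8, 0 and 0.099 FPKM on day 4. The highest levels were in the batch 1 libraries of day 0, and no day 4 library reached the lowest of day 0. It changed by −4.35 and −4.60 within the batches and by −4.47 ± 0.51 in all (limma, adjusted p = 0.000473; −4.73 after rescaling). Cend1, which promotes cell cycle exit in neurons, was at 5.58, 28, 23.2 and 18.9 FPKM in uninjured retinas and at 0 throughout day 4, as listed (adjusted p = 0.00342). Glul, the glutamine synthetase of Mueller glia, was at 322, 139.8, 63.9 and 51.9 FPKM in uninjured retinas and at 38.8, 27.6, 25.4 and 16.9 FPKM on day 4, a change of −2.04 ± 0.40 (adjusted p = 0.0107). Mgarp, a mitochondrial protein of retina, was at 726, 484, 113 and 156 FPKM in uninjured retinas and at 61.5, 116, 27 and 65.6 FPKM on day 4, with the batch 1 libraries higher at day 0, a change of −2.21 ± 0.34 (adjusted p = 0.0035). Of its day 4 values, that of replicate 2 lay above the lowest of day 0.

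Of 28 tested neuronal and synaptic genes 2 fell (3 after rescaling) and 0 rose, with a median change of −1.08 (−1.40 after rescaling), and 1 had a change above 0. The 8 tested bipolar markers had a median of −1.73 with 2 falls (1 after rescaling and 0 without day 0 replicate 1), and the 8 Mueller glia and astrocyte markers one of −2.01 with 1 fall, that of Glul, also after rescaling. Rod markers had a median of −0.66 with 0 falls (limma and limma voom alike, and 1 by unadjusted p under 0.05). The sums of the bipolar markers move with the day, as given above. When the mean log2 level of the bipolar and Mueller glia lists entered the fit as a covariate, 13 genes changed, 12 of them among the 790, and 683 of the 684 rises and all 106 falls kept their direction. Of the genes named here, Ccl12, Ran, Ranbp1 and Nusap1 then passed the test (adjusted p = 0.0407, 0.0321, 0.0321 and 0.0492). Without Apoe and Vim in those lists 0 genes passed in limma, while 1470 rises and 441 falls had an unadjusted p under 0.05. With the rod list as covariate 520 genes passed. Of the 68 called genes described here whose calls ended with the bipolar and Mueller glia covariate, 29 had a change at least as large as without it and 39 a smaller one, with a median ratio of 0.936 of the changes.

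Id3, an inhibitor of helix-loop-helix factors that TGF-beta and BMP induce, had the largest fall. It was at 112, 71.4, 11 and 20.6 FPKM in uninjured retinas and at 0.0239, 0, 0 and 0 FPKM on day 4, at or near 0 in all of day 4, a change of −5.25 ± 0.84 (limma, adjusted p = 0.00429; −5.30 after rescaling). At day 0, Id3 was higher in both libraries of batch 1 than in both libraries of batch 2. Of 17 tested genes of TGF-beta signalling 2 fell (1 after rescaling) and 0 rose, with a median of −0.31 (−0.46). Without day 0 replicate 1, 1 of them fell and their median was 0.12, against 0.25 for all tested genes. Of 15 tested clock genes 3 fell (also after rescaling) and 0 rose, with a median of −1.12 (−1.28). Nr1d1, the clock repressor REV-ERB alpha, was at 57.9, 39.2, 12.2 and 1.51 FPKM in uninjured retinas and at 3.07, 0.929, 0 and 0.0621 FPKM on day 4. It was high in the batch 1 libraries of day 0, and day 0 replicate 4 lay below day 4 replicate 1, so the groups overlapped. The change was −3.30 ± 0.72 (adjusted p = 0.0165), lost without day 4 replicate 2 (adjusted p = 0.0695). Arntl, the clock activator BMAL1, and Dbp, an output gene of the clock, changed by −2.92 ± 0.73 and −2.79 ± 0.71 (adjusted p = 0.0327 and 0.0344), and each call was lost in 7 of the 8 fits without 1 library. The labels do not state the hour of collection.

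Other falls did not belong to a list of retinal cells. Lyve1, a hyaluronan receptor of macrophages at tissue borders, was at 3.36, 13.9, 12.7 and 7.89 FPKM in uninjured retinas and at 0, 0, 1.23 and 0 FPKM on day 4, a change of −2.95 ± 0.53 (limma, adjusted p = 0.00713). It had no overlap, while Pf4, another marker of those macrophages, was at 46.3, 19.4, 16.1 and 172 FPKM in uninjured retinas and at 63.2, 78.2, 292 and 124 FPKM on day 4 and did not pass the test (adjusted p = 0.223). Ctu1, which modifies transfer RNAs, was at 13.9, 10.5, 9.27 and 17.6 FPKM in uninjured retinas and at 0 throughout day 4, as listed (adjusted p = 0.00511). Gstt1, a glutathione transferase, was at 26.8, 19.2, 8.79 and 13.3 FPKM in uninjured retinas and at 0.0559, 0, 0.0509 and 0.0625 FPKM on day 4, a change of −4.01 ± 0.80 (adjusted p = 0.0111). Selenop, which carries selenium, was the most abundant gene that fell. It was at 442, 1322, 1549.8 and 1796 FPKM in uninjured retinas and at 250.0, 211, 517 and 531 FPKM on day 4, and day 0 replicate 1 lay within the range of day 4. The change of −1.70 ± 0.39 (adjusted p = 0.0232; −2.17 after rescaling) was lost in 5 of the 8 fits without 1 library.

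**Figure D4:**
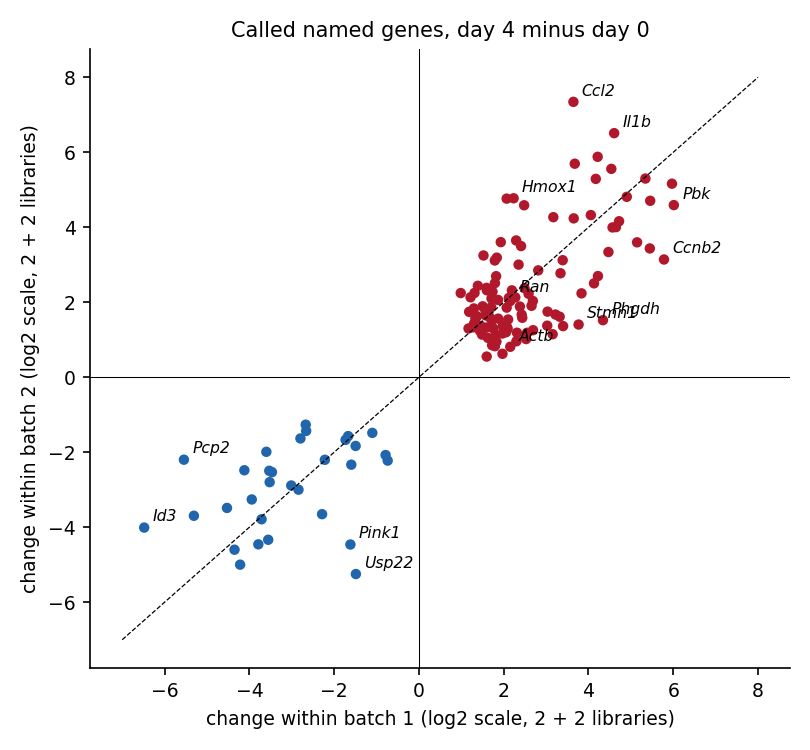
Change from day 0 to day 4 within batch 1 (horizontal axis) and within batch 2 (vertical axis), on the log2(FPKM + 1) scale with 2 libraries a day each, for the named genes that rose (red) or fell (blue). The dashed line marks equal changes. All points lie in the quadrants of equal sign; Pbk and Id3 changed more in batch 1, and Ccl2, Il1b and Usp22 more in batch 2.

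The changes were compared within the batches. In batch 1 the libraries of days 0 and 4 carry the same title number in full, and in batch 2 they do not. With the full number as covariate 379 genes changed. All 684 rises and all 106 falls had the same sign in both, against 8940 of all 14795 tested genes, which the joint test favours by its construction. A test of the difference between the batches called 1 gene of 14795 (0.00676%; limma). This was 3830403N18Rik, a gene model outside the rule for named genes and singled out after its value was seen, whose change was 1.78 in batch 1 and −2.34 in batch 2. Tested alone, batch 1 gave 303 changed genes and batch 2 gave 0, with 1748 at an unadjusted p under 0.05 in limma. Fits without 1 library called 267 to 635 genes, and the count fell to 393, 267 and 499 when day 4 replicates 1, 2 and 3 were left out. Of the 684 rises, 223 passed the test in every fit without 1 library, and of the 106 falls 23 did.

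Day 4 was set beside the other injured days with the same libraries of day 4, so these values are not independent of the comparison with day 0. Day 2 replicates 3 and 4 carry the title prefix F, unlike every library of day 4, and no day 2 library has the full title number of a day 4 library. Against day 2, whose mice had the same age, 67 genes changed at day 4 (0.453%; limma), 64 higher (0.433%) and 3 lower (0.0203%). From day 4 to day 7, when the mice were 16 weeks old, 241 changed (1.63%), 19 higher (0.128%) and 222 lower (1.5%). Leaving out 1 library left 2 to 31 genes against day 2, and 62 to 248 from day 4 to day 7, fewest without day 4 replicate 2 in the latter. With the full title number as covariate, 0 genes passed between days 2 and 4 (limma; 1509 had an unadjusted p under 0.05, and limma voom without that covariate called 79), so each day 2 call named here ended, and 104 passed from day 4 to day 7. Ccl12 had means of 638 ± 252, 8024 ± 3579.5 and 1634 ± 704 FPKM on days 2, 4 and 7 (SD, n = 4), and both steps passed the test (3.62 and −2.27; adjusted p = 0.00345 and 0.0169). The same was found for Ran, at 134 ± 27.6, 347 ± 37.9 and 96.5 ± 21.2 FPKM (1.39 and −1.85; adjusted p = 0.0143 and 0.00117). Eif5a, Ranbp1, Cdk4, Eif4a1, Cct8 and Cct3 also stood higher at day 4 than at day 2 and lower at day 7 than at day 4. Cct3 had the largest of these later falls, −2.53 (adjusted p = 0.00178). Gpm6a ran the other way, with 24.4 ± 18.6, 4.96 ± 5.89 and 102 ± 94.2 FPKM (−2.56 and 4.58; adjusted p = 0.0428 and 0.00117).

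Other groups had their own order of days. The changes of Nusap1 and Birc5 from day 2 to day 4 did not pass the test (0.12 and −0.69; limma, adjusted p = 0.958 and 0.765), and Nusap1 fell by day 7 (−3.30, adjusted p = 0.0095). Slfn2 and Ifi204 had means of 57.9 and 45.7 FPKM at day 4 and 93.7 and 88.3 FPKM at day 7, and neither step from day 4 to day 7 passed the test (adjusted p = 0.766 and 0.297). Tnf, Il1b, Ccl2, Ccl4 and Ccl3 were higher at day 4 than at day 2 (adjusted p = 0.0316, 0.0454, 0.0438, 0.0208 and 0.0208). These calls too ended with the full title number as covariate. Their later changes had adjusted p-values of at least 0.0986.

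**Figure D5:**
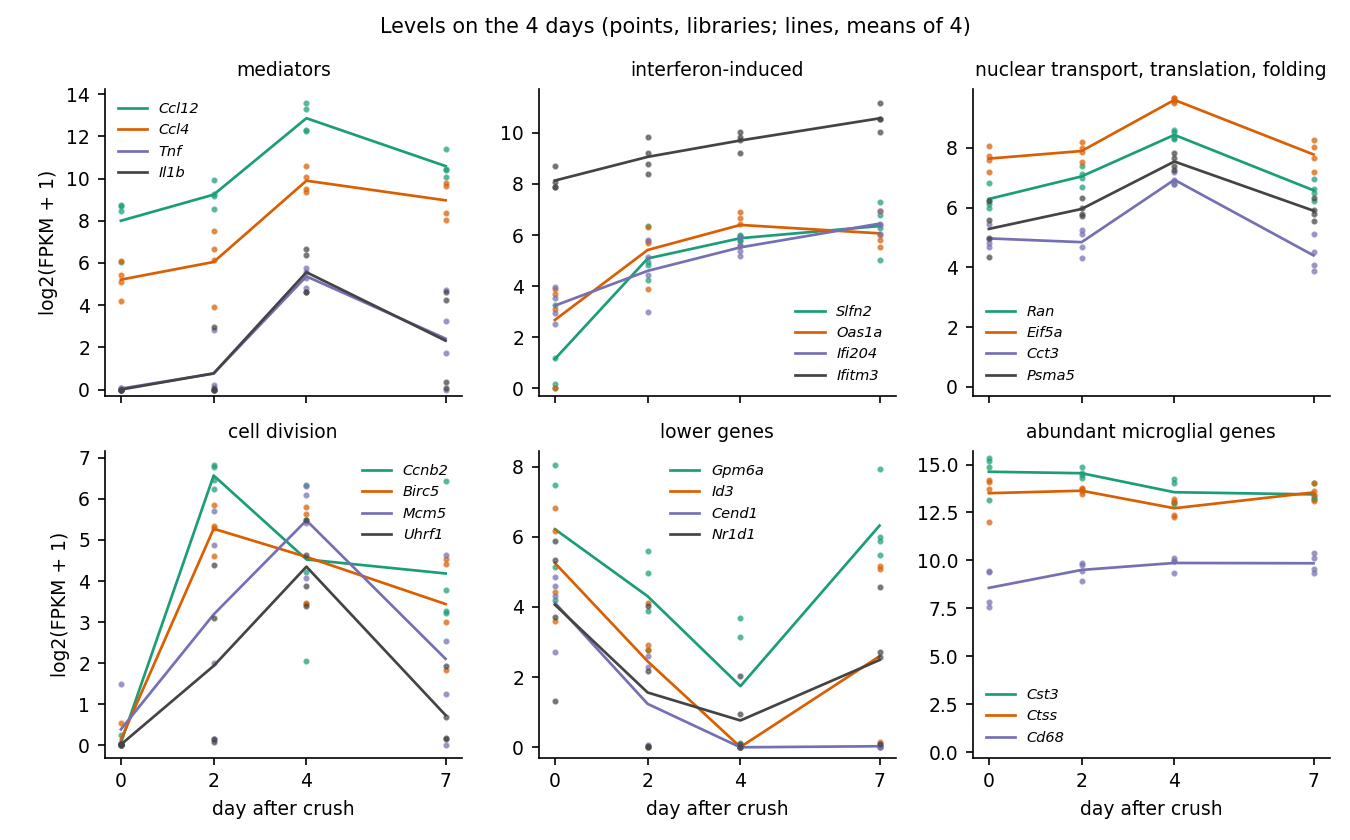
Levels as log2(FPKM + 1) (vertical axis) on days 0, 2, 4 and 7 (horizontal axis) for 23 genes in 6 groups. Points are libraries and lines join means of 4. Genes of nuclear transport, translation and folding peak at day 4, the named mediators also have their highest mean there, Ccnb2 has its highest mean at day 2, and Gpm6a has its lowest mean at day 4.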

How the data were processed

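RNA of sorted cells was measured in bulk by RNA sequencing. Per the labels' protocols, amplified cDNA was turned into libraries by Nextera XT, a kit that does not mark strand. The deposited table gives FPKM per gene, which the authors made from reads mapped with STAR 2.7.2b and counted with featureCounts 1.6.1 on the builds GRCm38.p6 and mm10, as the submitters' processing notes name them. The handling of reads with several matches: not given in the sources used here. FPKM times gene length came in even steps. With a step taken as 0.01 read, 9593228 to 15708302 reads assigned to genes were recovered for each library of days 0 and 4. Of the values above 0 in these libraries, 47.4% to 61.4% were whole reads. Parts of reads were therefore counted, by a rule that is not stated. In a gene of 1 kb a value of 0 allows up to 0.191 to 0.313 FPKM (3 reads, counting error only, since reads of amplified cDNA share molecules). The 37 mitochondrial genes are at 0 in each of the 16 libraries, so a 0 is given only as listed, with no fold change against a group at 0 throughout.

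A gene was tested if 4 or more of the 16 libraries reached 1 FPKM. The test was limma's (version 3.58.1, R 4.3.3, trended eBayes, two-sided) on log2(FPKM + 1) of all 16 libraries, with day and batch as terms. P-values were adjusted over the 14795 genes with the Benjamini-Hochberg method. Errors beside changes are SEs of this fit. A fit with day by batch gave the changes within batches. On simulated data with the same levels, 31 of 100 genes changed by 2 on the log2 scale and 79 of 100 changed by 4 were recovered, with 8 other genes called. Fewer genes were changed there than were called in the data, and the simulated noise was normal and could fall below 0. These rates therefore need not hold for the real comparison. Alternatives were other pseudocounts, filters, scaling, covariates, batches, limma voom, and fits without 1 library.

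The members and lists were chosen with earlier results of these data known. Named genes were Gpr84, Tnf and Il1a; of the called genes that reached a mean of 5 FPKM on either day and did not overlap between the days, the 15 largest rises, 15 largest falls and 10 smallest p-values; the 10 most abundant rises and 5 most abundant falls; and for each of 53 lists up to 4 called members by p, or the most abundant where fewer than 2 were called. Unnamed models, mitochondrial genes, duplicated names and pseudogenes were left out, and not every named gene is described. Some genes are not reported here, and 1 microglia and 1 rod marker were left out of the marker sums. Exon overlap came from the GENCODE M21 annotation with bedtools 2.31.1, promoter windows from RefSeq GRCm38.p6.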

Additional observations from a re-analysis of the deposited data

Results flagged for a closer look

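In several genes the gap of 1 library to the nearest of the other 3 of its day was above Dixon's 95% critical value. Chance gives this in about 1 in 20 groups, and whether the cases below exceed that share was not tested. Where the other 3 are at 0, as for Cxcl10, Ccnb2, Id3 and Lyve1, any value above 0 meets it. In day 0 replicate 1, Ccl12 was at 65.6 FPKM against 350.3 to 432 FPKM in the others, Mcm5 at 1.83 FPKM against at most 0.0483, Birc5 at 0.46 FPKM against at most 0.0227 and Tyms at 1.7 FPKM against at most 0.0484. In day 0 replicate 2, Cxcl10 was at 17.9 FPKM and Ccnb2 at 0.193 FPKM with the others listed at 0, and Tagln2, the actin-binding protein, was at 6.33 FPKM against 48.3 to 52 FPKM. In day 4 replicate 1, Id3 was at 0.0239 FPKM with the others at 0, and Arntl at 0.79 FPKM against at most 0.103. In day 4 replicate 3, Lyve1 was at 1.23 FPKM with the others at 0, and in day 4 replicate 4, Slc25a5 was at 1286 FPKM against 874 to 922 FPKM.

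The change of the gene model 3830403N18Rik differed between the batches by −4.12 (limma, adjusted p = 0.0279), with 1.78 within batch 1 and −2.34 within batch 2. It was the only gene of 14795 whose difference passed this test.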

How the results depend on the processing

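The count of 790 genes at day 4 against day 0 stayed within 1.5 times with pseudocounts of 0.1 and 5, a filter of 5 FPKM, no batch covariate and the replicate block (566), and it moved to 308 without a filter, 272 after rescaling by median-of-ratios factors (154 higher, 118 lower), 510 with limma voom on recovered reads, 401 with the 8 libraries alone, 379 with the full title code as covariate, 303 with batch 1 alone and 0 with batch 2 alone (limma; 1748 at an unadjusted p under 0.05). With the bipolar and Mueller glia lists as covariate it was 13. Chosen after seeing the data, the same lists without Apoe and Vim gave 0 (1470 rises and 441 falls at an unadjusted p under 0.05) and the rod list gave 520. Fits without 1 library gave 267 to 635 genes, with 393, 267 and 499 without day 4 replicates 1, 2 and 3. Against day 2, the 67 genes became 148 with a pseudocount of 5, 2 without a filter, 111 with a filter of 5 FPKM, 23 after rescaling, 0 with the full title code (1509 at an unadjusted p under 0.05), 31 with the replicate block and 2 to 31 in the 8 fits without 1 library of either day. From day 4 to day 7, the 241 genes became 63 without a filter, 74 after rescaling, 147 with limma voom, 104 with the full title code, 152 with the replicate block and 62 to 248 without 1 library (84, 62, 157 and 117 without day 4 replicates 1 to 4, and 81 without day 7 replicate 2). The 1 gene that differed between batches became 14 and 7 with pseudocounts of 0.1 and 5, 81 without a filter, 8 after rescaling and 0 with the 8 libraries alone (1480 at an unadjusted p under 0.05). The cause of these moves was not tested. Deviations of libraries with the same replicate number correlated by 0.23, −0.02, 0.08 and 0.03 between days 0 and 4. The main fit did not pair libraries by number, and so few correlations cannot exclude a pairing. Of the 79 genes described, none reversed, 8 lost and 1 gained a call after rescaling, and 68 lost it with the bipolar and Mueller glia covariate, where the change was at least as large in 29 of them. Fits of days 2 and 7 with only the libraries of days 0 and 4 were not run, since they hold no such libraries. At these depths a value of 0 in a gene of 1 kb allows up to 0.191 to 0.313 FPKM.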

Other observations

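Receptors and defence genes outside the groups described above also changed at day 4. Of 21 tested pattern recognition receptors and adaptors 3 rose (1 after rescaling) and 0 fell, with a median change of 1.15 (0.68 after rescaling by median-of-ratios factors). Pycard, the adaptor of inflammasomes, was at 11.6, 17.8, 39.5 and 29.2 FPKM in uninjured retinas and at 88, 90.5, 65.5 and 94.2 FPKM on day 4. No day 4 library overlapped day 0, and the rise was 1.87 ± 0.31 (SE; limma, adjusted p = 0.00511; 1.40 after rescaling). Of 32 tested inhibitory and activating immune receptors 4 rose (2 after rescaling), and the median of 0.30 turned to −0.13 after rescaling. Lilrb4a, an inhibitory receptor, was at 1.16, 3.19, 0 and 0.0348 FPKM in uninjured retinas and at 18.3, 13.6, 19.8 and 27.8 FPKM on day 4, a rise of 3.54 ± 0.55 (adjusted p = 0.00355), though 35.9% of its exon sequence is shared with Gm49339. Txn1, thioredoxin, was at 61, 81.8, 116 and 63.1 FPKM in uninjured retinas and at 213, 215, 172 and 270.5 FPKM on day 4, a rise of 1.46 ± 0.23 (adjusted p = 0.00429; 0.98 after rescaling). The groups did not overlap.

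Bcl2a1d, a survival member of the Bcl2 family, was at 19, 18.3, 98.8 and 81.8 FPKM in uninjured retinas and at 224, 191, 328 and 166 FPKM on day 4. It rose by 2.38 ± 0.39 (limma, adjusted p = 0.00491; 1.91 after rescaling), with 3.40 within batch 1 and 1.36 within batch 2. It has near-identical copies in the genome, so its level is uncertain. Of 27 tested genes of cholesterol synthesis and efflux 0 passed the test in limma or limma voom, and 0 had an unadjusted p under 0.05, and the median of 0.14 turned to −0.18 after rescaling. Of 25 tested immediate early and dissociation genes 0 passed (limma; 5 rose and 1 fell at an unadjusted p under 0.05, and 0 passed with limma voom), with a median of 0.28 (−0.02 after rescaling). Fos, a gene that responds within minutes to handling, was at 462, 163, 15 and 146 FPKM in uninjured retinas and at 119, 248, 95.1 and 216 FPKM on day 4, and the groups overlapped widely.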
